A study of Sus scrofa with 40 samples.

Results

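Pig kidneys that had been warm ischemic for 60 min were biopsied at 6 h and once more at 24 h of cold storage, and both times were compared within each kidney. The 20 arrays of the cold-stored groups, out of 40 in the series, were chosen by their titles: 5 arrays each of WI+CS6h and WI+CS24h cortex (C) and of WI+CS6h and WI+CS24h corticomedullary junction (CMJ). Per the labels, each organ was biopsied at both times, and the number in the title was taken to mark the kidney, which gave 5 pairs in each tissue. All kidneys came from Large White pigs aged 3 months. They were clamped, kept clamped at 37 °C, flushed with University of Wisconsin (UW) solution at 4 °C and then stored in it without reperfusion. A 24 h sample thus came from an organ already cut at 6 h. Whether a number means the same kidney in cortex and in CMJ is not written in the labels, and the study describes the animals as brothers. The other 20 arrays, 5 per tissue of control kidneys frozen at removal (Ctl) and 5 of kidneys frozen after the warm ischemia alone (WI), were used here only to give levels before cold storage. Each array held Cy3-labelled RNA, and every value is a log2 signal, quantile normalized over the 40 arrays and averaged over the probes of an identifier. A difference is 24 h minus 6 h on that log2 scale.

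The renal cortex is made up mostly of convoluted proximal tubules and glomeruli, and the CMJ holds the straight proximal tubules and thick ascending limbs, which work at low oxygen tension and are known as the part of the nephron most sensitive to ischemia. Cold slows enzymes, ion pumps, transcription and RNA decay together, and UW solution contains impermeant solutes that limit cell swelling when the pumps stop. With no blood flow, no cells reach the stored kidney from the circulation. In a bulk biopsy, less RNA per cell and fewer cells of a type cannot be told apart.

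The share of spots well above background stood for depth on these arrays and ran from 57.01% to 69.91% over the 40 arrays. Proximal tubule markers were abundant in all 4 cold-stored groups, with a mean log2 signal over the 16 markers on the array of 11.76 to 12.44 in single samples. The 8 fibroblast markers had group medians of 8.19 to 8.45, and the 10 skeletal muscle markers, of which 5 or 6 were well above background in a group, had group medians of 3.33 to 3.38. These marker ranges overlapped between 6 h and 24 h in each tissue. Over transcripts that differed between kidneys, the 6 h cortex arrays labelled 1 and 2 were closer to the CMJ arrays of the other number. Over all identifiers, the 6 h cortex arrays labelled 3, 4 and 5 were closest to a 24 h cortex array of another number. The pairing in cortex is thus less certain than in CMJ. Averaging kidney 1 with 2 and kidney 3 with 4, which does not depend on the labels within those sets, also gave 0 calls in the 4 comparisons that follow.

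No gene passed the test between 6 h and 24 h. With kidney number as a block, limma called 0 of 35927 identifiers in cortex (0%), 0 of 35935 in CMJ (0%), and 0 of 35919 for the mean of both tissues (0%), where a call needed a log2 difference of 0.5 or more in size together with an adjusted p below 0.05. The difference between the tissues gave 0 calls as well (0%). At an unadjusted p under 0.05 there were 622 identifiers in cortex (1.73%), 327 (0.91%) higher and 295 (0.821%) lower at 24 h. In CMJ there were 1719 (4.78%), 704 (1.96%) higher and 1015 (2.82%) lower. The mean of both tissues gave 721 (2.01%), 333 (0.927%) higher and 388 (1.08%) lower, and the difference between tissues 1697 (4.72%), 694 (1.93%) higher and 1003 (2.79%) lower in cortex than in CMJ. These unadjusted counts depended on the fit. With kidney number as a random block they were 1407 in cortex and 796 in CMJ, and with slide 1464 and 775, so the order of the tissues turned. Without kidney 4 cortex gave 1603. All 5 kidneys had the same sign for 382 identifiers higher (1.06%) and 486 lower (1.35%) in cortex, and for 1086 higher (3.02%) and 1112 lower (3.09%) in CMJ. The smallest adjusted p was 1 in cortex, 0.89 in CMJ, 1 for the mean and 0.8 for the difference. By comparison, in a limma fit of all 4 groups of a tissue without pairing, 1445 identifiers (4.02%) in cortex and 1148 (3.19%) in CMJ were called at 6 h against Ctl. At 24 h these were 900 (2.5%) and 1313 (3.65%), from the same Ctl arrays.

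Some of these 0 counts changed with the normalization. When arrays were quantile normalized within each group, as the study's methods describe, limma called 181 identifiers in CMJ, 111 higher and 70 lower at 24 h, and 4173 for the difference between tissues, of which 4083 were lower. Cortex and the mean of both tissues still gave 0 under that setting, with 5863 and 761 identifiers at an unadjusted p under 0.05. Scaling each group to its own distribution moved the median difference in cortex from -0.01 to -0.09. Without the pairing 1 identifier was called in CMJ, with no gene symbol, an unpaired difference of -0.80 and an adjusted p of 0.0246. It was not well above background on any of the 10 CMJ arrays, and its adjusted p with pairing was 0.89.

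The differences were small and their intervals set how far an absence of calls can be read. The median absolute difference was 0.10 in cortex and 0.08 in CMJ. The median distance from the estimate to either end of its 95% confidence interval was 0.47 in cortex and 0.24 in CMJ. In CMJ, 89.6% of identifiers had an interval that lay within 1 log2 unit of 0, a 2-fold change, and 68.2% one within 0.5. In cortex these shares were 74.7% and 40.7%. Of the 22769 identifiers in cortex that were well above background on at least 3 arrays of a cold-stored group, 80.6% had an interval within 1 log2 unit, and of the 22777 in CMJ 97.6%. For the other identifiers a 2-fold change between the times lay inside the interval.

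The transcripts that set cold-stored kidneys apart from Ctl were examined next. FOS encodes a subunit of the AP-1 transcription factor and is transcribed within minutes of a stress. In cortex its log2 signal was 11.61, 12.74, 12.70, 12.21 and 12.06 at 6 h and 12.19, 12.16, 11.77, 12.10 and 12.77 at 24 h in kidneys 1 to 5, against 9.12 to 10.13 in Ctl-C. Every cold-stored cortex sample was above every Ctl sample, and the samples of the 2 times overlapped. FOS rose by 2.61 at 6 h and 2.55 at 24 h against Ctl (adjusted p = 3.81e-06 and 4.25e-06). Its difference between the times was -0.06, with a 95% interval from -0.77 to 0.64. The dimmest of the 3 FOS probes was left out as an outlier spot in kidney 3 at 6 h, and the 3 probes alone differed by 0.0022, 0.02 and 0.17, of the opposite sign. In CMJ the signal was 12.20, 12.51, 12.99, 12.93 and 13.30 at 6 h and 12.66, 12.50, 12.97, 12.84 and 13.18 at 24 h. The CMJ difference of 0.04 had an interval from -0.20 to 0.29, and kidney 1 alone gave 0.46 while the other 4 gave -0.12 to -0.01. EGR1, a zinc finger immediate early factor, rose against Ctl by 2.60 at 6 h and 2.48 at 24 h in cortex (adjusted p = 7.37e-06 and 1.42e-05) and by 2.36 at both times in CMJ (adjusted p = 2.01e-05 and 1.78e-05). EGR1 differed between the times by -0.13 in cortex and by -0.0033 in CMJ.

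FUT2, a fucosyltransferase that builds blood group antigens on epithelia, was also higher than in Ctl. Its signal in cortex was 5.70, 5.03, 6.67, 6.38 and 6.61 at 6 h and 5.56, 5.48, 6.42, 6.75 and 5.90 at 24 h, and Ctl-C lay between 1.27 and 1.77. The CMJ values were 4.86, 5.10, 6.18, 6.07 and 5.80 at 6 h and 5.06, 5.50, 6.09, 6.21 and 5.85 at 24 h. Kidneys 3 and 4 were above kidneys 1 and 2 in both tissues at both times. The difference was -0.05 in cortex (95% interval -0.54 to 0.43) and 0.14 in CMJ (-0.06 to 0.34). Of its 3 probes, 2 were not well above background on any Ctl array, so the rise of the averaged signal is not an exact fold. The third, well above background on every Ctl and cold-stored array, had a mean of 3.58 in Ctl, 5.82 at 6 h and 5.80 at 24 h in cortex, and of 3.77, 5.42 and 5.45 in CMJ. HMOX1, the enzyme that degrades heme, was 0.83 above Ctl at 6 h and 0.78 at 24 h in cortex (adjusted p = 0.011 and 0.0206). In CMJ it was 0.85 above at 6 h (adjusted p = 0.0462) and 0.76 at 24 h (adjusted p = 0.0708). Its difference between the times was -0.05 and -0.09.

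**Figure D1:**
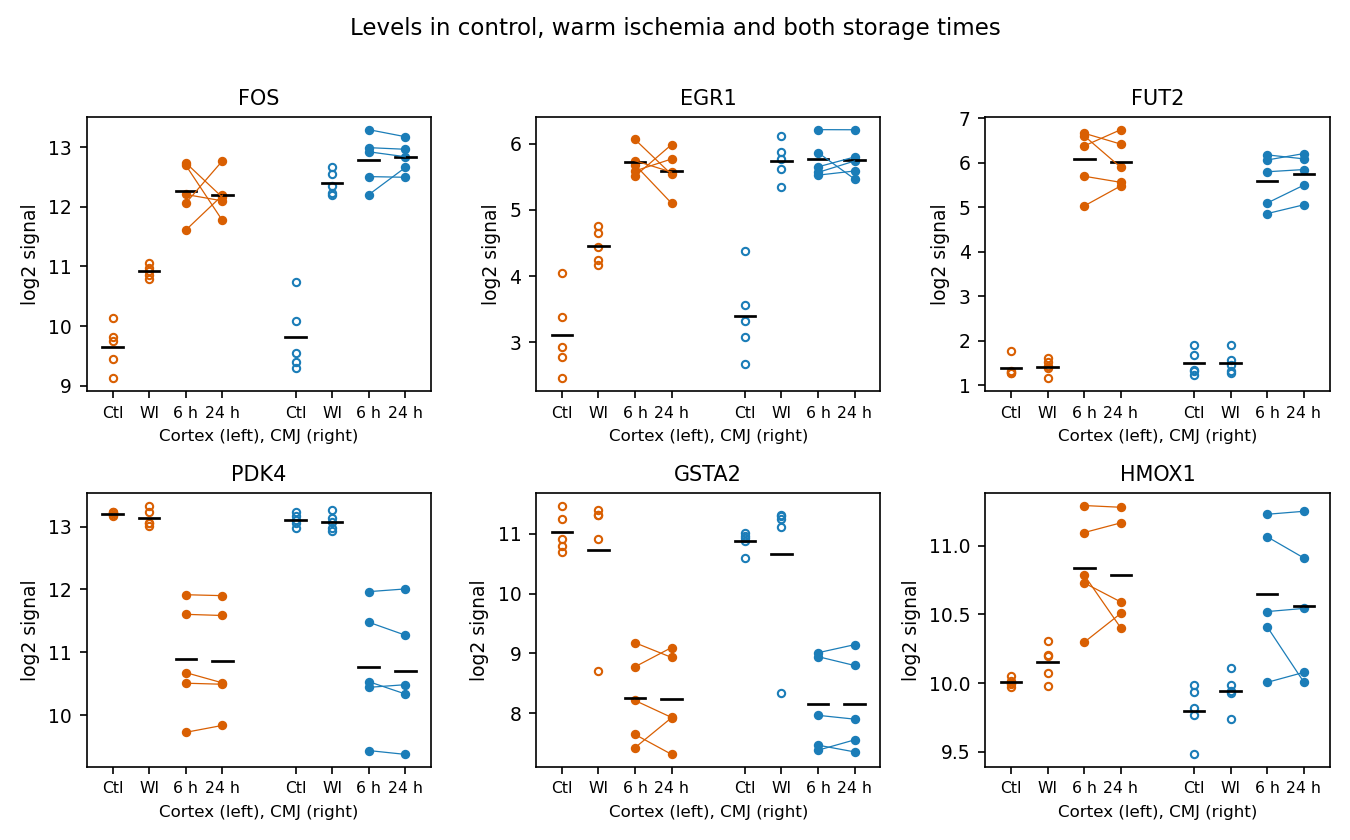
Log2 signal of FOS, EGR1, FUT2, PDK4, GSTA2 and HMOX1 in Ctl, WI, 6 h and 24 h samples of cortex (orange) and CMJ (blue). Points are samples, bars are means of 5, and thin lines join the 6 h and 24 h samples of a kidney. The 6 h and 24 h points overlap for every gene in both tissues, and FUT2 lies below 2 in all Ctl and WI samples and above 4.8 in all cold-stored ones.

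Transcripts lower than in Ctl included PDK4, a kinase that switches off pyruvate dehydrogenase. Its cortex signal was 10.68, 10.51, 11.60, 11.92 and 9.73 at 6 h and 10.51, 10.49, 11.58, 11.90 and 9.84 at 24 h. In both tissues and at both times kidney 5 was the lowest of its group and kidney 4 the highest, while Ctl-C lay between 13.16 and 13.23. PDK4 fell by 2.32 and 2.34 against Ctl in cortex, and its paired difference was -0.02 in cortex (95% interval -0.23 to 0.19) and -0.08 in CMJ (-0.23 to 0.08). GSTA2, a glutathione transferase of the proximal tubule, fell by 2.78 and 2.79 against Ctl in cortex. Its paired difference was -0.0077 in cortex (95% interval -0.42 to 0.41) and -0.0034 in CMJ (-0.18 to 0.17). CDO1 oxidises cysteine. It was higher at 24 h in 5 of 5 kidneys in CMJ (difference 0.27, unadjusted p = 0.0447 in limma, adjusted p = 0.89) and lower in 4 of 5 in cortex (-0.22, unadjusted p = 0.115), and the difference between tissues was -0.50 (unadjusted p = 0.0189, adjusted p = 0.974). Against Ctl, CDO1 fell by 2.42 and 2.64 in cortex and by 3.61 and 3.34 in CMJ. CYP2C42, a cytochrome P450, was well above background on 1 of the 20 cold-stored arrays, so its values in cold storage are upper bounds.

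Over the whole list of genes that the study names, 51 of 63 were on the array and 50 of these were well above background. The list was picked on these samples against Ctl, so it is not independent evidence. The median difference was -0.02 in cortex and 0.0033 in CMJ, with 20 and 25 of the 50 higher at 24 h. Over all identifiers well above background the median was 0.0037 and -0.0069, with 51.3% and 46.7% higher. The interval lay within 1 log2 unit for 46 members in cortex and for 50 in CMJ, against 80.6% and 97.6% of all identifiers well above background. None passed the test. In CMJ 3 members of the 50 had an unadjusted p under 0.05, near the share over all identifiers (4.78%): CDO1, the heat shock gene HSP70 (-0.25, unadjusted p = 0.0319, lower in 5 of 5 kidneys) and the calcium channel gene MCOLN3 (-0.23, unadjusted p = 0.0418).

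The genes that had been called at 6 h against Ctl in one tissue were then read in the other, so that the arrays that chose them were not those described. The kidneys may be the same ones. For the 1445 called in cortex, 585 higher and 860 lower than Ctl, the CMJ difference was turned so that a positive value meant further from Ctl. Its median was 0.03, with quartiles at -0.05 and 0.11 and medians of single kidneys from -0.02 to 0.10. In CMJ 893 of the 1445 (61.8%) were further from Ctl at 24 h, 66 (4.57%) had an unadjusted p under 0.05, against 4.78% of all CMJ identifiers, and 94.7% had an interval within 1 log2 unit of 0, against 89.6% of all. For the 1148 called in CMJ, the median in cortex was -0.04 and 447 (38.9%) were further from Ctl. In cortex the kidneys ranged from -0.22 to 0.19, kidneys 3 and 5 at the lower and kidney 4 at the upper end. Over all identifiers, without turning, 50% were higher at 24 h in CMJ and 46.1% in cortex.

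Gene lists, 29 in all, covering stress, metabolism and cell types were described by counts and medians. No list had a member that passed the test. Among all identifiers well above background, 51.3% were higher at 24 h in cortex and 46.7% in CMJ. The signs of the medians turned on single kidneys, since without kidney 3 they changed for 36 of 87 list medians (29 lists in cortex, in CMJ and for the mean of both). Among immediate early genes, 17 were well above background, with a median difference of -0.03 in cortex and 0.06 in CMJ. In CMJ 14 of the 17 were higher at 24 h, and the medians of single kidneys ran from -0.15 to 0.30. One member, MYC, a growth factor-responsive transcription factor, was lower at 24 h in 5 of 5 cortex pairs. No other member had an unadjusted p under 0.05 in cortex, against 1.73% of all identifiers. The signal of MYC in cortex was 7.08, 6.99, 6.82, 6.78 and 6.97 at 6 h and 6.78, 6.48, 6.24, 6.68 and 6.45 at 24 h. The 24 h samples lay at 6.78 or below and the 6 h samples at 6.78 or above. Its difference was -0.40 ± 0.11 (SE, n = 5 pairs; unadjusted p = 0.0107, adjusted p = 1 in limma), and in CMJ it was 0.06 (unadjusted p = 0.587).

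The 14 heat shock genes and chaperones had medians of -0.05 in cortex and -0.01 in CMJ, with 3 and 5 higher at 24 h. HSPA8, the constitutive chaperone, differed by -0.08 and -0.01, and HSPH1, its exchange factor, by -0.15 and 0.01. The inducible gene HSP70.2 had the lowest unadjusted p of this list for the mean of both tissues (-0.70, unadjusted p = 0.0305, adjusted p = 1), and this value depended on a probe left out on some arrays. The gene is represented by 2 probes of unlike brightness, printed here because which of them was kept decides the result. The array files give their sequences, and neither was placed on a genome here.
HSP70.2 A_72_P015686: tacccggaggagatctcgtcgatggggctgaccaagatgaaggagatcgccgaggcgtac
HSP70.2 A_72_P088236: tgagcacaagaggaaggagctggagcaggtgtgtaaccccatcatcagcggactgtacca
The first probe, with a log2 signal of 5.06 to 6.48, was left out as an outlier spot on 7 of the 20 arrays, 5 of them at 6 h. On those 7 arrays the value was that of the second, brighter probe alone. The second probe read 10.41, 10.28, 10.36, 10.28 and 9.56 at 6 h and between 9.38 and 10.14 at 24 h in cortex, lower at 24 h in each kidney. In CMJ it read 10.11, 10.19, 9.93, 10.20 and 9.27 at 6 h and 10.12, 10.08, 9.87, 10.26 and 9.41 at 24 h. The brighter probe alone gave a mean difference of -0.12 (unadjusted p = 0.119), and with outlier spots kept the average of both gave 0.06 (unadjusted p = 0.614), of the opposite sign.

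The inflammatory, p53 and NRF2 lists had more members lower than higher in cortex. Of 28 NF-kB and early inflammatory genes, 9 were higher at 24 h in cortex and 16 in CMJ, with medians of -0.04 and 0.01. PTGS2, the inducible prostaglandin synthase, was lower in cortex in 4 of 5 kidneys (-0.64, unadjusted p = 0.0254) and differed by 0.19 in CMJ (unadjusted p = 0.417). PTGS2 was the only member of this list with an unadjusted p under 0.05 in cortex, against 1.73% of all identifiers. The 25 interferon-stimulated genes had medians of -0.04 and 0.03, with 7 higher in cortex and 17 in CMJ. Of these, IFIT1, an antiviral RNA-binding protein, was higher at 24 h in 5 of 5 CMJ pairs (0.23, unadjusted p = 0.00684, adjusted p = 0.89) and differed by -0.06 in cortex. ISG20, an interferon-induced exonuclease, was lower in 5 of 5 CMJ pairs (-0.25, unadjusted p = 0.0444) and differed by -0.0090 in cortex. IFIT1 and ISG20 were the only members of this list with an unadjusted p under 0.05 in CMJ, against 4.78% of all identifiers. The 19 members of the p53 and apoptosis list had medians of -0.05 and 0.03, with 4 and 11 higher. The 21 NRF2 and antioxidant genes had medians of -0.01 and -0.03, with 6 and 4 higher.

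Metabolic and tubular lists had medians near 0 and differed by kidney. The 21 fatty acid oxidation genes had a median of 0.01 in cortex, where 15 were higher at 24 h, and -0.06 in CMJ, where 4 were. CPT1A, the mitochondrial carnitine transferase that gates long-chain fatty acids, was lower in 5 of 5 kidneys in CMJ (-0.16, unadjusted p = 0.0308) and higher in 4 of 5 in cortex (0.07). CPT1A was the only member of this list with an unadjusted p under 0.05 in CMJ, against 4.78% of all identifiers. In CMJ its partner CPT2 was lower in 5 of 5 as well (-0.24, unadjusted p = 0.063). Of 16 proximal tubule markers 8 were higher at 24 h in cortex and 1 in CMJ, with medians of 0.0091 and -0.12. In CMJ the medians of single kidneys ran from -0.43 in kidney 3 to 0.06 in kidney 5. The phosphate transporter SLC34A1 differed by -0.17 in CMJ, where a second SLC34A1 identifier gave 0.03, and the organic anion transporters SLC22A6 and SLC22A8 by -0.24 and -0.27, none with a p under 0.05. The 17 cytochrome P450 genes had a median of -0.02 in cortex and -0.14 in CMJ, where 1 was higher. Their kidney medians in CMJ, from -0.53 in kidney 3 to 0.09 in kidney 4, had the same lowest kidney as those of the proximal tubule markers. The 13 loop, distal tubule and collecting duct markers had medians of 0.04 and 0.10, with 10 higher in CMJ. The balance of proximal and distal segments in each biopsy was not measured apart from these transcripts, and its part in the differences was not tested.

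The 13 mitochondrial genome transcripts encode subunits of the respiratory chain and had medians of 0.03 in cortex and -0.01 in CMJ, with 12 and 2 higher at 24 h. The 34 ribosomal protein genes had medians of -0.0069 and 0.03, with 11 and 28 higher, and all 34 intervals lay within 1 log2 unit in both tissues. The 8 fibroblast markers had medians of -0.04 and 0.07, with 0 and 7 higher and kidney medians of -0.58 to 0.31 in cortex and -0.38 to 0.73 in CMJ. Kidney 2 was the lowest and kidney 3 the highest in both tissues. HBB, the beta chain of hemoglobin, differed by 0.74 in cortex and by 0.69 in CMJ (unadjusted p = 0.285 and 0.04), and was well above background on 2 or 3 of 5 arrays of each group. In kidneys 1 and 2 it was at or below 1.52, in kidneys 3 and 5 above 3, and in kidney 4 it differed between the times by 3.40 in cortex.

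**Figure D2:**
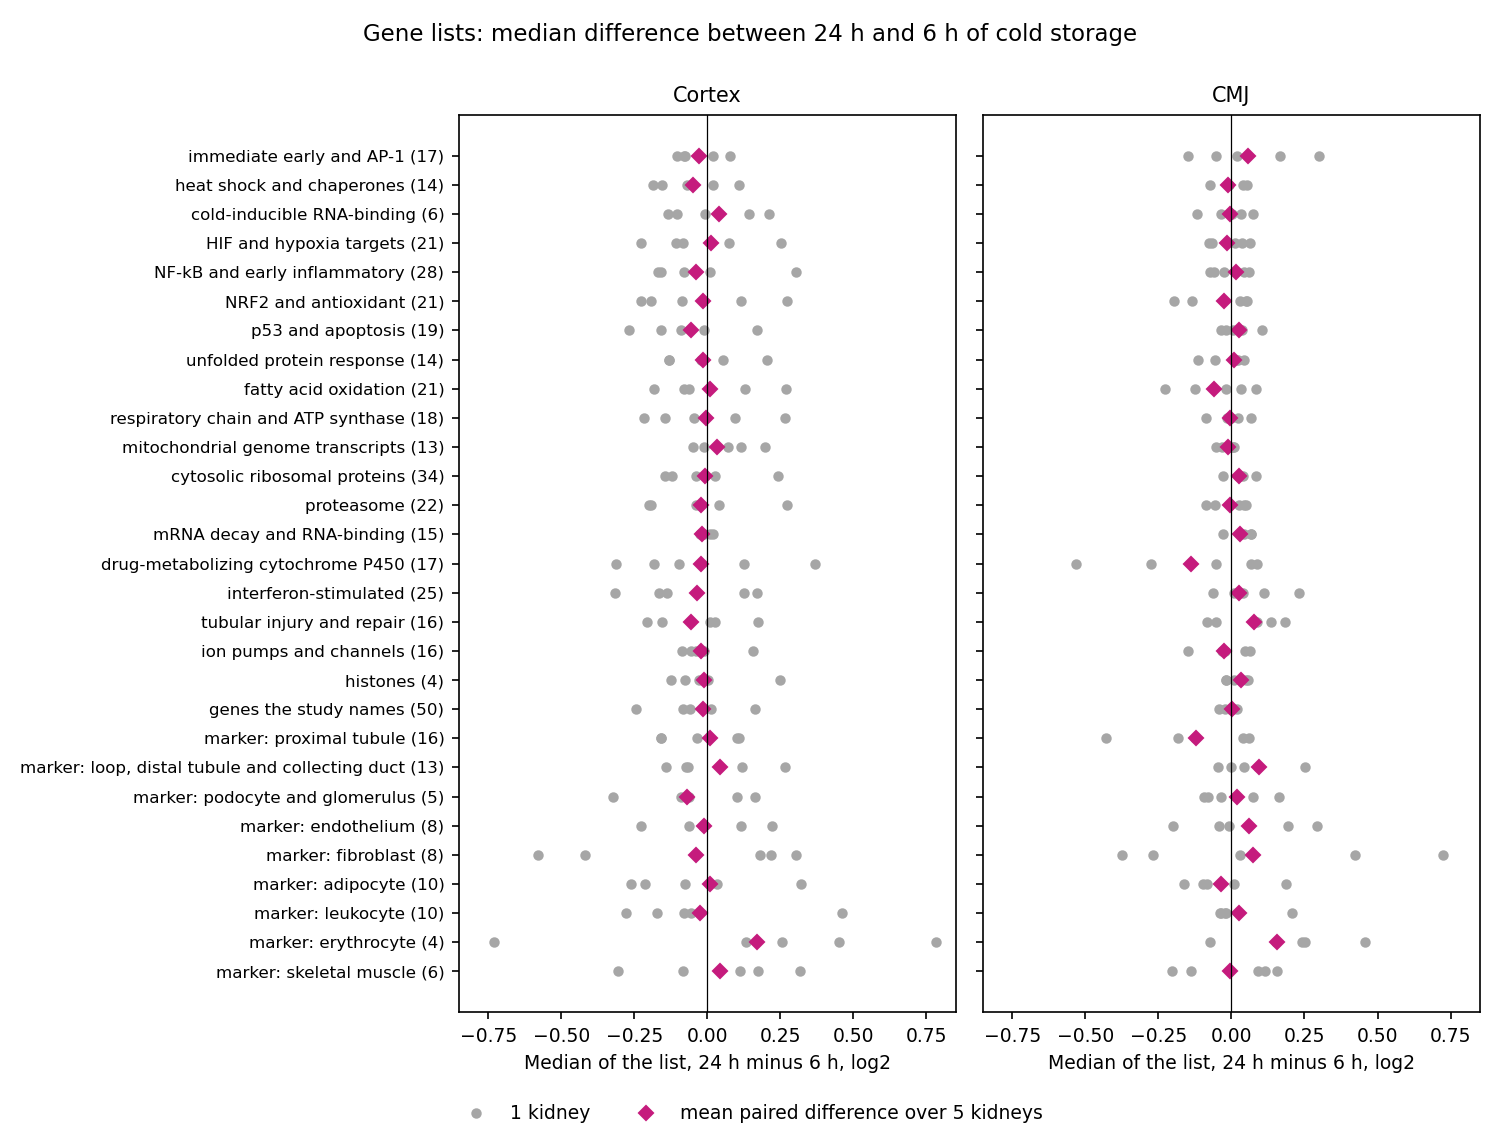
Difference between 24 h and 6 h (log2) for 29 gene lists in cortex and CMJ. Each grey point is the median over a list's members in 1 kidney, the magenta diamond is the median of the mean paired difference, and the number of members well above background is in parentheses. In cortex all diamonds but that of the 4 erythrocyte markers lie within 0.1 log2 units of 0, and in CMJ all but those of the P450, proximal tubule and erythrocyte lists. Kidney points of the fibroblast, P450 and erythrocyte lists reach beyond 0.5 from 0.

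Genes were then listed by the smallest p, in the knowledge that none passed. Of 35919 identifiers, 13 (0.0362%) were higher at 24 h in all 10 pairs and 13 (0.0362%) lower in all 10. Those with a symbol and well above background on at least 3 arrays of a cold-stored group were NAT10, IGH and KIF4A, each represented by 1 faint probe. NAT10, an RNA acetyltransferase of the nucleolus, was the one that was higher. Its log2 signal in cortex was 1.93, 2.11, 1.90, 2.10 and 2.64 at 6 h and 2.39, 2.60, 2.50, 2.73 and 2.74 at 24 h. Its CMJ values were 2.13, 2.62, 2.06, 2.49 and 2.67 at 6 h and 2.78, 2.79, 2.21, 2.76 and 3.03 at 24 h. Samples of the 2 times overlapped in both tissues, and the difference was positive within each kidney. The difference was 0.46 ± 0.11 in cortex (SE, unadjusted p = 0.00726) and 0.32 ± 0.09 in CMJ (unadjusted p = 0.0118), with adjusted p of 1 and 0.89 in limma. NAT10 was well above background on 2 of the 5 cortex arrays at 6 h and on 5 of 5 at 24 h and in Ctl-C, and in CMJ on 3 and 4 of 5. Its probe is printed because no other bright enough gene with a symbol was higher in all pairs.
NAT10 A_72_P316888: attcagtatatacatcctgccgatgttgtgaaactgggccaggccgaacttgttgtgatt
IGH, an immunoglobulin heavy chain identifier, was lower at 24 h in all 10 pairs but faint, well above background on 2 and 1 of 5 cortex arrays at 6 h and 24 h and on 4 and 0 of 5 CMJ arrays. Its cortex values were thus mostly at background, it met the filter through the 6 h CMJ group alone, and its place in this list carries no weight. Its CMJ level was at least 1.4-fold higher at 6 h (measured means 2.58 and 2.01). KIF4A, a mitotic kinesin, differed by -0.42 and -0.40 (unadjusted p = 0.0355 and 0.064) and was well above background on 3 of 5 arrays of each group but 24 h CMJ, with 2 of 5, but another KIF4A identifier that was well above background differed by -0.04 and -0.16.

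In cortex the smallest p among named genes was that of HAS1, a hyaluronan synthase of the plasma membrane. Its signal was 3.55, 3.80, 4.80, 3.71 and 3.11 at 6 h and 2.65, 2.56, 3.09, 3.14 and 2.19 at 24 h. It was lower at 24 h in every kidney, and the groups overlapped only at kidney 5 at 6 h and kidney 4 at 24 h. The difference was -1.07 ± 0.18 (SE; unadjusted p = 0.00134, adjusted p = 1 in limma). HAS1 was not well above background on any Ctl-C array, and its cortex level was at least 3.67-fold higher at 6 h (adjusted p = 0.00022) and at least 1.75-fold higher at 24 h (adjusted p = 0.014) than in Ctl-C (measured means 3.79, 2.72 and 1.19). In CMJ it was well above background on 1 of 10 cold-stored arrays, so no difference is given there or between the tissues. PDE6C, a cone photoreceptor phosphodiesterase, and GCM1, a transcription factor of the placenta, differed by 0.73 and 0.47 (unadjusted p = 0.00571 and 0.0119), PDE6C being well above background on 2 of 5 cortex arrays at 6 h and 3 of 5 at 24 h. PDE6C met the filter through the 24 h cortex group alone, so its rank carries no weight either. RCCD1 differed by -0.36 (unadjusted p = 0.0138). Other identifiers of PDE6C and RCCD1 differed by 0.05 and by 0.11 and 0.10, so the probes of these genes disagreed.

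In CMJ the smallest p among named genes was that of ROPN1, a protein of the sperm tail, at -0.41 ± 0.05 (unadjusted p = 0.000415, adjusted p = 0.89). It was well above background on all 5 CMJ arrays at 6 h (2.26 to 2.77) and on none at 24 h (1.95 to 2.45), so it entered this ranking through signals present at 6 h and its place there carries no weight. Its level was at least 1.26-fold higher at 6 h (measured means 2.60 and 2.19). CENPI, a centromere protein, and PIGA, an enzyme of membrane anchor synthesis, differed by -0.49 and -0.53, although a second PIGA identifier differed by 0.06 and PIGA was well above background on 1 of 5 CMJ arrays at 24 h. CLCA1, RUFY4 and RAB25, of which RAB25 is a small GTPase of epithelial recycling endosomes, were higher at 24 h in 5 of 5 kidneys by 0.50, 0.55 and 0.42. CLCA1 was well above background on 4 of the 10 CMJ arrays. Its 5 probes ranged from 0.0033 to 1.135 in CMJ, and the 2 RUFY4 probes gave 0.37 and 0.73. For the difference between tissues the smallest p among named genes were those of TAF9B (-0.70, unadjusted p = 0.00177), ACOX2, a peroxisomal acyl-CoA oxidase (0.58, unadjusted p = 0.00299), and CRYBB1 (-0.74, unadjusted p = 0.00455), which was well above background on 2 of 5 CMJ arrays at either time. The 2 probes of TAF9B disagreed, with -0.77 in cortex and 0.53 in CMJ for one and -0.10 and -0.01 for the other. ACOX2 was well above background on every cold-stored array, with 5.42, 6.13, 5.61, 6.11 and 5.27 at 6 h and 5.89, 6.19, 6.29, 5.90 and 5.99 at 24 h in cortex. In CMJ it was 6.64, 6.43, 6.12, 6.34 and 5.99 at 6 h and 6.40, 6.04, 6.08, 5.83 and 6.00 at 24 h. The ranges of the 2 tissues overlapped at both times, and a second ACOX2 identifier that was well above background differed by 0.17 in cortex and -0.04 in CMJ. Of the named genes, CLCA1, RUFY4, CENPI, PIGA, ACOX2, C8G, CFAP70, TAF9B and JPH4 passed the threshold only with arrays normalized within each group.

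The agreement of both tissues was read from the mean paired differences over all identifiers, which are not replicates. Cortex and CMJ differences correlated at r = -0.10 and rho = -0.13 over 35927 identifiers, and 16301 (45.4%) had the same sign. Among the 22769 identifiers well above background, r was -0.06 and 10785 (47.4%) had the same sign. Of the 51 identifiers with an unadjusted p under 0.05 in both tissues, 23 had the same sign. Higher in all 5 cortex pairs and lower in all 5 CMJ pairs were 31 identifiers (0.0863%), and the reverse held for 17 (0.0473%), against 13 and 13 in the same direction. The sign of r rested on kidney 5, since r was 0.05 without it and -0.11 to -0.05 without each other kidney.

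**Figure D3:**
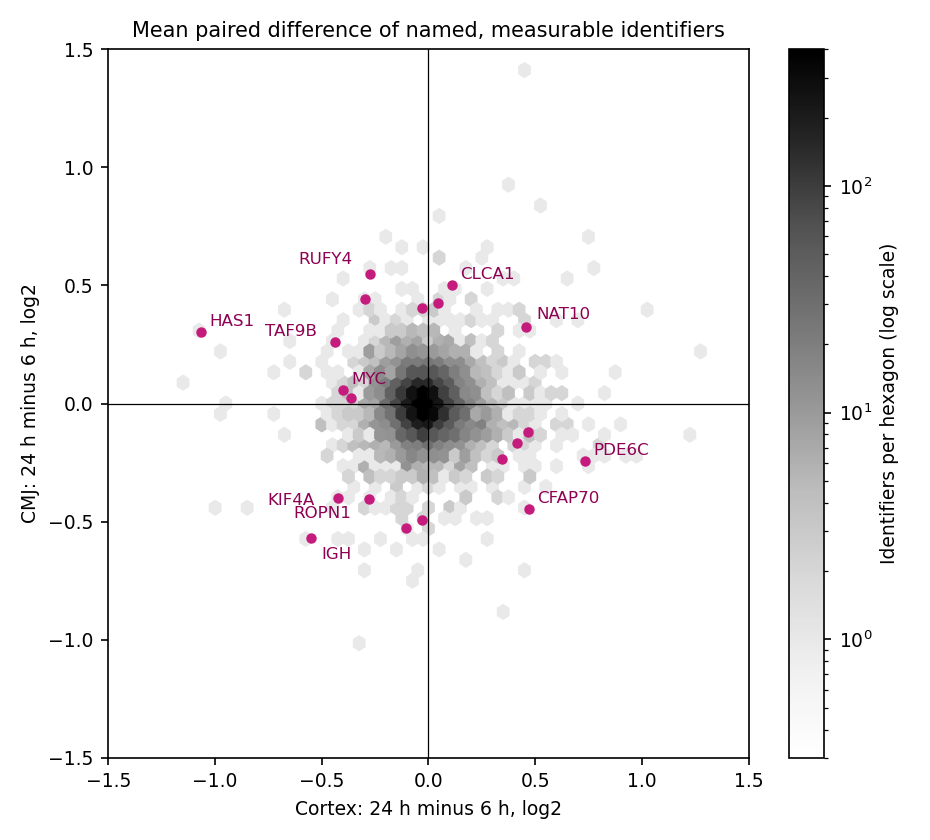
Mean paired difference (24 h minus 6 h, log2) in cortex (horizontal) against CMJ (vertical), for identifiers with a gene symbol that were well above background. Grey shading counts identifiers per hexagon on a log scale, and magenta points are the genes named by the smallest p. The cloud is centred on 0, NAT10 lies in the upper right quadrant, KIF4A and IGH in the lower left.

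Single kidneys were compared in the same way, as a description. Within cortex the differences of 2 kidneys correlated over identifiers at -0.81 to 0.61 (median -0.32 over 10 pairs of kidneys), and within CMJ at -0.12 to 0.39 (median -0.04). The cortex and CMJ differences of the same number correlated at -0.01 to 0.30 (median 0.21), and those of unlike numbers at -0.34 to 0.34 (median -0.05). The share of spots well above background also differed by kidney. In cortex at 6 h it was 61.99%, 68.47%, 57.23%, 68.00% and 57.01% in kidneys 1 to 5, and at 24 h it was 65.51%, 65.67%, 67.48%, 63.36% and 67.02%. Kidneys 3 and 5 at 6 h had the lowest shares of all 40 arrays, and their median differences over identifiers were -0.07 and -0.13. Kidney 4 had 4.64 points less at 24 h (difference -4.64) and a median difference of 0.14. The part of detection in the gene differences was not tested.

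With 5 pairs the smallest p that a sign-flip test allows is 0.0625, so a difference in this share could not have passed 0.05. In cortex the mean was 62.5% ± 5.57 (SD, n = 5) at 6 h and 65.8% ± 1.61 at 24 h, higher in 3 of 5 kidneys (exact sign-flip permutation test, two-sided, p = 0.375). In CMJ it was 66.9% ± 2.01 and 63.8% ± 1.36, higher in 1 of 5 (exact p = 0.125).

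**Figure D4:**
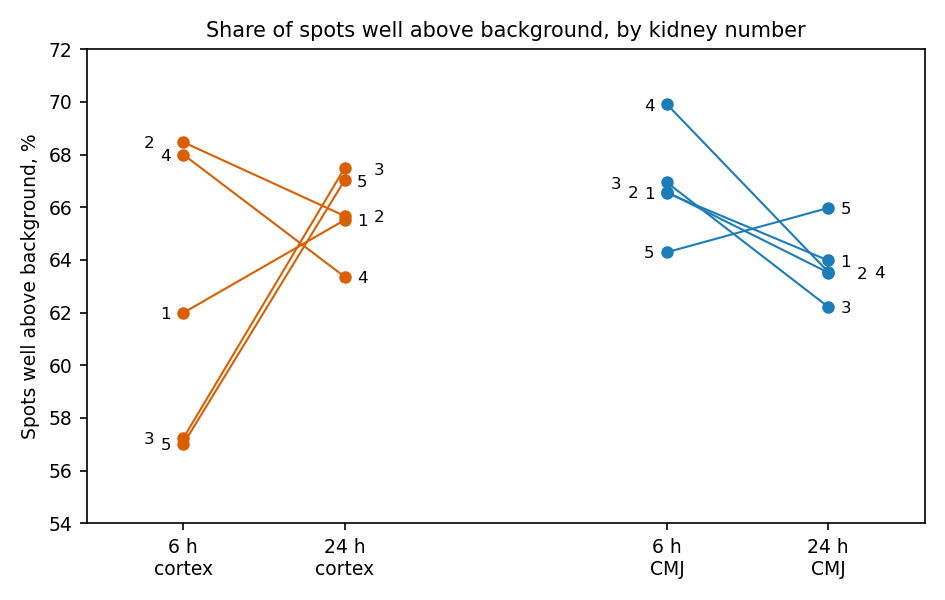
Share of spots well above background (%) at 6 h and 24 h in cortex and CMJ, with lines joining the 2 samples of a kidney and kidney numbers beside the points. In cortex kidneys 3 and 5 start near 57% and end near 67%, and in CMJ 4 of 5 kidneys are lower at 24 h.

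The spread between kidneys was described next. Among identifiers well above background, the median SD of the kidney means was 0.25 in cortex and 0.23 in CMJ. The median SD within a kidney was 0.27 in cortex and 0.14 in CMJ, above that of the kidney means in cortex and below it in CMJ. A set of 757 identifiers, 309 of them with a symbol, was chosen on the CMJ arrays. The variance of the kidney means had to be above 0.5 and over 10 times the within-kidney variance of such a mean. That within-kidney term is smaller than the square of the within-kidney SD given above. The same rule gave 509 in cortex, and 418 were in both sets, 55.2% of the first and 82.1% of the second.

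The cortex arrays, which had no part in choosing the CMJ set, were then compared with it. Over the 757 identifiers, the 10 cold-stored cortex arrays correlated with the CMJ profile of their own number at 0.76 to 0.92. Ctl and WI cortex arrays, which came from other kidneys, gave -0.14 to 0.18. Kidneys 1 and 2 resembled each other (r = 0.86 between their CMJ profiles), as did kidneys 3 and 4 (0.92), and all other pairs of kidneys correlated at -0.76 to -0.16. Each cold-stored cortex array matched best inside its own set of kidneys, 1 with 2, 3 with 4, or 5 alone. Of the 8 cold-stored cortex arrays of kidneys 1 to 4, 6 correlated best with the other kidney of their set, among them the 6 h samples of kidneys 1 and 2 (0.89 and 0.91, against 0.78 and 0.76 for their own). Among all identifiers well above background, 10 were over 2 log2 units apart in CMJ between kidneys 1 and 2, none with a level over 6. Of these, 0 kept their order in cortex at 6 h and 8 at 24 h. Between kidneys 3 and 4 there were 2 such identifiers, again none with a level over 6, and both kept their order at both times. The 6 h cortex arrays labelled 1 and 2 thus went against the CMJ order on these 10 faint identifiers. Over all identifiers each correlated best with the 24 h cortex array of its own number. Against the 6 h CMJ arrays each correlated best with the other number (0.33 against 0.15 for array 1, 0.42 against 0.13 for array 2). At 24 h the cortex arrays labelled 1 and 2 did so as well (0.28 against 0.25, 0.32 against 0.23). The 6 h cortex arrays labelled 3, 4 and 5 correlated best with a 24 h cortex array of another number. The numbers were used as the labels give them.

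Some of these transcripts, chosen after their values were seen, are described to show their size. CYCS, the cytochrome c of the respiratory chain, was 10.35, 10.21, 10.40, 10.27 and 12.58 at 6 h and 10.27, 10.29, 10.28, 10.57 and 12.36 at 24 h in cortex. In CMJ it was 10.25, 10.28, 10.37, 10.40 and 12.46 at 6 h and 10.24, 10.33, 10.49, 10.44 and 12.49 at 24 h. Kidney 5 stood above the other 4 kidneys in all 4 groups, and the 20 Ctl and WI arrays lay at 10.14 to 10.61. All 12 CYCS probes had their highest mean in kidney 5. The cholesterol synthesis enzymes CYP51, a sterol demethylase, and SQLE, squalene epoxidase, had the same pattern, at 10.73 to 10.82 and 9.63 to 9.75 in kidney 5 against 7.87 to 8.45 and 5.97 to 6.80 in kidneys 1 to 4.

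Other transcripts split the kidneys 3 ways. TTR, the plasma carrier of thyroid hormone and of retinol with its binding protein, was 8.97 to 9.69 in kidneys 1 and 2, 13.51 to 14.51 in kidneys 3 and 4, and 10.47 to 11.35 in kidney 5, over both tissues and times. The Ctl and WI arrays lay at 13.46 to 14.83, so kidneys 3 and 4 were inside that range and the other 3 below it. TNFAIP1, an adaptor of ubiquitin ligases, had the same order, with 4.45 to 4.92, 8.83 to 9.11 and 5.22 to 6.19. CYP2A19, a cytochrome P450 of drug metabolism, had another, with 8.49 to 9.59 in kidneys 1 and 2, 5.41 to 6.70 in kidneys 3 and 4, and 3.56 to 4.50 in kidney 5. P450 genes of a subfamily are close in sequence, and the probes of CYP2A19 could share signal with relatives. A probe each of CYCS and CYP2A19 is printed to show what was measured, read from the array files.
CYCS A_72_P485031: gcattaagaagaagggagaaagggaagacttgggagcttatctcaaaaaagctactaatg
CYP2A19 A_72_P442836: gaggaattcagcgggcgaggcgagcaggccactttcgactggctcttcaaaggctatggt
Averaged over tissues and times, the CYCS probe read 6.23, 6.15, 6.26, 6.43 and 8.93 in kidneys 1 to 5, and the CYP2A19 probe 6.73, 6.44, 3.61, 4.18 and 1.05. The last was well above background on 15 of the 20 arrays. Within a kidney, the mean absolute difference between the times was 0.31 for the first and 0.33 for the second probe.

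**Figure D5:**
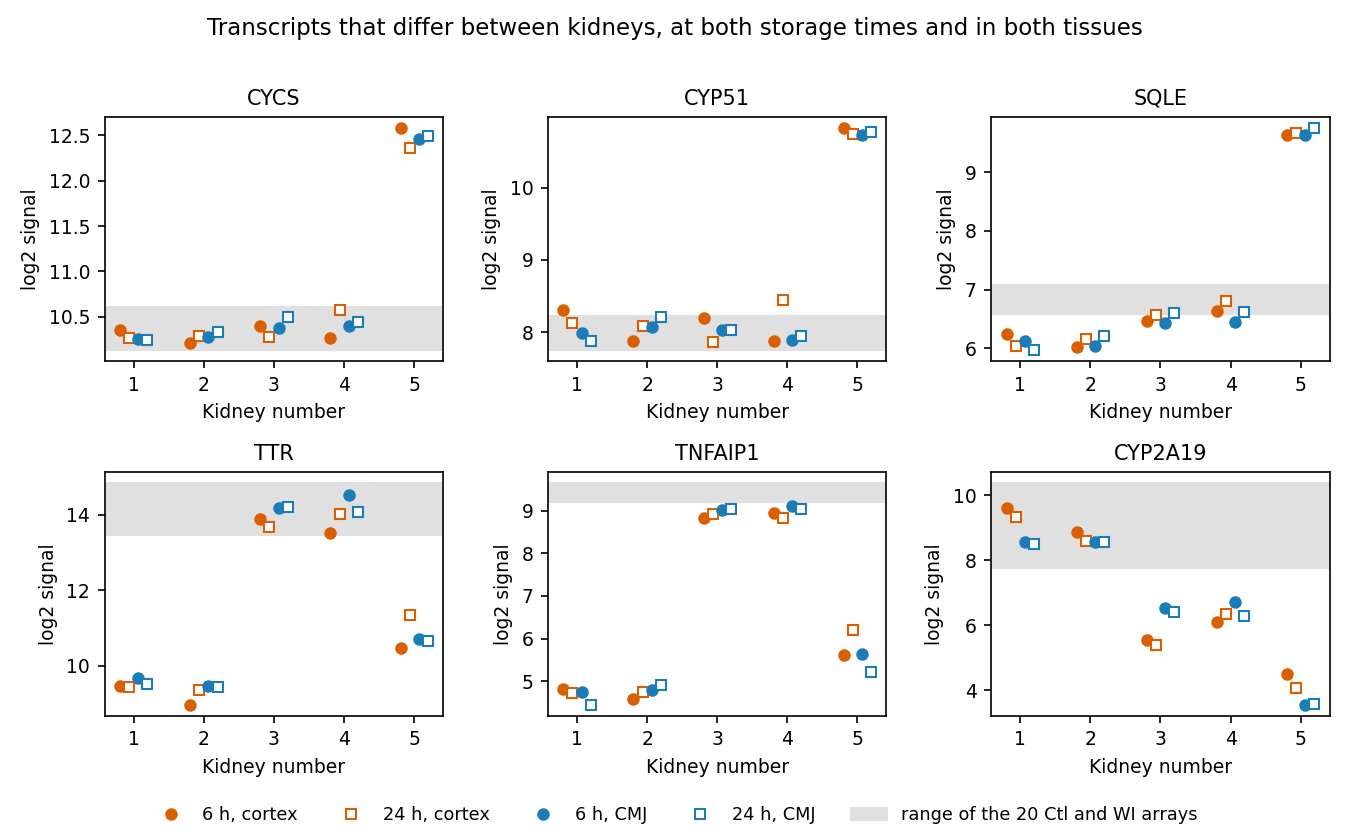
Log2 signal of CYCS, CYP51, SQLE, TTR, TNFAIP1 and CYP2A19 by kidney number, with 6 h as filled circles and 24 h as open squares, cortex in orange and CMJ in blue. The grey band is the range of the 20 Ctl and WI arrays. The 4 points of a kidney lie together, kidney 5 is highest for CYCS, CYP51 and SQLE, and kidneys 3 and 4 are highest for TTR and TNFAIP1.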

How the data were processed

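RNA of 40 pig kidney samples was labelled with Cy3 and hybridised to 1-colour Agilent porcine arrays for 17 h. Per the file headers, the authors extracted the deposited intensity values, the background-corrected gProcessedSignal, with Agilent Feature Extraction 11.5.1.1. The deposited matrix of log2 values, which the authors quantile normalized with limma, was used only as an alternative; the methods describe that normalization as done by condition.

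Here log2 intensities of 43803 non-control spots were quantile normalized over the 40 arrays with limma 3.58.1 (R 4.3.3), outlier spots (10 to 85 per array) were left out, and probes were averaged to 35955 identifiers. Of these, 8854 had a symbol. The array files gave a symbol for 8023 and RefSeq accessions for 5356, many of them the same identifiers. The RefSeq symbol was used only where the files gave none. "Well above background" means the scanner software's flag on at least 3 of 5 arrays of a cold-stored group, unless a number of arrays is given. Differences of 24 h minus 6 h per kidney number were tested with limma, which equals a number block, with Benjamini-Hochberg adjustment over all identifiers; every p of a single gene is limma's. The mean of both tissues and their difference were fitted in the same way, and comparisons with Ctl over the 4 groups of a tissue without a block. Where an identifier was well above background on no array of a group, a fold is a lower bound: the brighter group's mean over, per array, the higher of the dim signal and the lowest signal well above background.

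Per the labels, each organ was biopsied at both times; that the number in a title marks the kidney was taken from the titles. Deviations from group means of same-numbered arrays correlated at 0.33 to 0.61 in CMJ, and in cortex at 0.36, 0.34, 0.17, -0.31 and 0.03 for numbers 1 to 5, where 6 h number 4 correlated best with 24 h number 3 (0.57) and numbers 3 and 5 with 24 h number 4 (0.33 and 0.32). Cortex numbers 4 and 5 fell short of the minimum that the planned check asked of every pair, and the numbers were still used. The number of arrays limits the precision. Arrays were scanned on 2 days and lay on 10 slides of 4 arrays. Genes were named by rule: the 10 smallest p among those moving one way in all 10 pairs, the 3 smallest p per direction in each tissue and for the tissue difference, the first 4 of each list, and the genes the study names. List members with an unadjusted p under 0.05 for the mean of both tissues were named as well. PTGS2 and ISG20 met none of these rules and were named for an unadjusted p under 0.05 in 1 tissue. Members and lists were chosen with earlier results of these data known. Steps were tested on simulated data. Alternatives covered normalization, background, probe choice, filters, blocks, scan day, and each kidney left out. No genome was used, so probes carry no positions.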

Additional observations from a re-analysis of the deposited data

Results flagged for a closer look

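Within 372 groups of 5 values, 14 (3.76%) held 1 kidney set far apart from the other 4 for the size of the group, 5 in cortex and 9 in CMJ. The groups were kidney differences of single genes and, for the 4 cold-stored groups, shares of spots well above background, where none was set apart. Chance sets apart about 1 in 20 such groups. All values given below are 24 h minus 6 h on the log2 scale.

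In CMJ, kidney 5 stood apart for the centromere gene CENPI (-0.85, others -0.46 to -0.35), the hypoxia factor partner ARNT (-0.23, others -0.05 to 0.02) and the mitotic kinase AURKB (-0.37, others 0.02 to 0.03). Kidney 1 stood apart for FOS (0.46, others -0.12 to -0.01) and for SQLE of cholesterol synthesis (-0.14, others 0.11 to 0.18). Kidney 3 did so for HSP70.2 (-2.09, others -0.14 to 0.11), where one of the 2 probes was left out at 6 h and kept at 24 h, and for the interferon-induced gene ISG15 (0.58, others up to 0.15). Kidney 4 stood apart for TAF9B (0.73, others 0.04 to 0.22) and kidney 2 for the slow muscle myosin MYH7 (0.47, others -0.02 to 0.11).

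In cortex, kidney 4 stood apart for the histone gene H2AFZ (0.27, others -0.15 to -0.05), the T cell gene CD3D (0.70, others -0.29 to -0.13) and DICER1 (-0.20, others up to 0.06). Kidney 5 stood apart for MDM2, the inhibitor of p53 (-0.35, others -0.04 to 0.09), and kidney 2 for the potassium channel gene KCNJ10 (1.68, others -0.24 to 0.05).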

How the results depend on the processing

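The counts of called genes were 0 in every comparison run under each alternative but 2, and without each kidney in turn they ranged from 0 to 0. Quantile normalization within each group gave 181 calls in CMJ and 4173 for the difference between tissues. The fit without the replicate block gave 1 call in CMJ and 0 in the other 3 comparisons, and pairing changed no other call. Choices made after seeing the data (kidneys 3 and 5 left out, kidneys 4 and 5 left out, and kidneys 1 and 2 and kidneys 3 and 4 averaged) gave 0 calls where run (the first 2 not in CMJ), as did kidneys scanned on 1 day at both times, slide as a random block, and blocks of tissue and number, fitted for the mean alone.

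Unadjusted counts moved by over 1.5 times in some settings. With 75th percentile scaling, 3784 identifiers in CMJ and 5240 for the difference had a p under 0.05. Without kidney 4 there were 1603 in cortex, 1134 for the mean and 3228 for the difference, and without kidney 5 there were 2615 in CMJ and 1404 for the mean. Without the pairing cortex gave 1119. With kidney number as a random block cortex gave 1407 and CMJ 796, and with slide as a random block 1464 and 775, so the order of the tissues turned. The deposited matrix gave 251 in cortex, 253 for the mean and 900 for the difference, and normexp background correction 394 in cortex and 312 for the mean. Settings that tested fewer identifiers or kidneys moved the counts as well, for example to 180 in cortex and 992 in CMJ without dim identifiers.

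The correlation of both tissues was -0.34 with 75th percentile scaling and -0.37 with normalization within groups. Without each kidney in turn it ranged from -0.11 to 0.0509, the highest without kidney 5. The cause was not tested. Of 173 gene values, 42 took the other sign with normalization within groups, 40 in the deposited matrix and 42 without kidney 3. Of 87 list medians, 36 took the other sign without kidney 3, 25 without kidney 5 and 24 with normalization within groups, and of 58, 34 did without kidneys 3 and 5. Of 167 gene values, 58 took the other sign without kidneys 3 and 5.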
